A study of Mus musculus with 100 samples.

Results

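The prostaglandin and leukotriene pathway was followed in mouse knee joints through 10 genes chosen by name: Ptgs1, Ptgs2, Ptges, Ptgis, Ptgds, Hpgds, Ptger2, Ptger4, Alox5 and Alox5ap. All 10 were rows of the count table, among 17310 genes.

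The data were read counts per gene from 100 RNA-seq libraries of whole knee joints of mice of 3 strains. STR/ort is described as highly susceptible to osteoarthritis, C57BL/6 as moderately susceptible and MRL/MpJ, a strain known for unusually good healing, as not susceptible. At 10 weeks of age the right knee was injured by a single compressive load of 10 to 12 N on the tibia, which tears the anterior cruciate ligament, and the uninjured contralateral knee of injured mice served as control. Joints were taken at 0-day (before any injury, 4 libraries per strain) and after injury at 1-day, at 1-week and at 2-weeks. Each strain had 5 injured libraries at each of these times. It had 5 contralateral libraries, except for 4 at 1-week in MRL/MpJ and in STR/ort. No sham-loaded joints were analysed here. The sex of the mice is not in the labels. The 2-weeks libraries were made as a separate experimental batch of 30, the other 70 being batch 1, so a difference between 2-weeks and an earlier time cannot be told apart from batch and was not tested. The joint was kept whole with traces of soft tissue, so bone, marrow, cartilage, synovium and muscle contributed RNA together. In such bulk samples, fewer cells of a type and less RNA per cell cannot be told apart.

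Arachidonic acid, released from membranes by phospholipases, feeds both arms of this pathway. In the prostaglandin arm the cyclooxygenases encoded by Ptgs1 and Ptgs2 make the common intermediate prostaglandin H, which terminal synthases turn into prostaglandin E2, prostacyclin or prostaglandin D2, and these act through receptors on the cell surface. In the leukotriene arm 5-lipoxygenase, helped by its activating protein, starts the synthesis of leukotrienes. Prostaglandin E2 is a known mediator of pain and swelling in injured joints, and Ptgs2 (COX-2) is the cyclooxygenase that cells induce.

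Levels are given as CPM, counts put on one library size, using TMM factors. Total counts per library ran from 6182016 to 20986027. A gene was called where the adjusted p of edgeR's quasi-likelihood test (Benjamini-Hochberg over 17310 genes) was under 0.05 and the fold change was over 1.5. The cartilage, synovial fibroblast, muscle, neutrophil, macrophage, mast cell, platelet and endothelial markers that were looked up were all detected in all 21 groups. All numbers after a log2 fold change as ± are its standard error.

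Divided by the length of their merged exons, the members spanned a wide range of levels. Alox5ap stood at a median of 81.7 CPM per kb over the 21 groups, Alox5 at 16.6, Ptgis at 15.3 and Ptgs1 at 11.5. Hpgds stood at 4.75, Ptges at 1.68, Ptger4 at 1.44, Ptger2 at 0.622 and Ptgs2 at 0.528 CPM per kb. The leukotriene genes, the prostacyclin synthase and the constitutive cyclooxygenase were thus the abundant members. Ptgs2 was low but covered the widest relative range among the well-detected members, from 0.153 to 4.45 CPM per kb between its lowest and highest group. Ptgds, which encodes the lipocalin-type prostaglandin D synthase known from brain, was close to absent: 40 of 100 libraries held no count, the highest count was 7, and only 8 libraries passed the floor of 3 counts, so no fold change is given for it.

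To show the 2 cyclooxygenase genes and the inducible prostaglandin E synthase side by side, their start regions are printed from RefSeq (mouse GRCm38.p6), 250 bases before to 50 after an annotated start. Of the 10 members, 8 had an entry. Capitals mark matches, on either strand, to 6 motifs searched for. These were the letters TATAAA of the basal promoter box, the letters TGACG of a short cyclic AMP response element, the letters GGGCGG of the GC box, the letters TGANTCA of the AP-1 element, the letters TTNNGNAA of the C/EBP element, and the NF-kB motif.
Ptgs2 promoter, chr1:150099781-150100080, plus strand: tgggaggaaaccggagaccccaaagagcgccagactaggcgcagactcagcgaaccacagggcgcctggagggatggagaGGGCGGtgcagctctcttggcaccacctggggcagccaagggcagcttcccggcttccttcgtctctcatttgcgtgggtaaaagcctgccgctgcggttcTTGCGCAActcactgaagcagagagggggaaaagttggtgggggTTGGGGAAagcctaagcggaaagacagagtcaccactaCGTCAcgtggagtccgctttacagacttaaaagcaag
Ptges promoter, chr2:30903248-30903547, minus strand: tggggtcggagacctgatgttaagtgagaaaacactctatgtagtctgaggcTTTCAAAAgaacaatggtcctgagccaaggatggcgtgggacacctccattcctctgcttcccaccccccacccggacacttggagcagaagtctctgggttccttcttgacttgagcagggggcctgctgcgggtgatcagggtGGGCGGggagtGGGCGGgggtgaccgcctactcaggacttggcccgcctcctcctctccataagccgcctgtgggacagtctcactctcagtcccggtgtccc
Ptgs1 promoter, chr2:36230176-36230475, plus strand: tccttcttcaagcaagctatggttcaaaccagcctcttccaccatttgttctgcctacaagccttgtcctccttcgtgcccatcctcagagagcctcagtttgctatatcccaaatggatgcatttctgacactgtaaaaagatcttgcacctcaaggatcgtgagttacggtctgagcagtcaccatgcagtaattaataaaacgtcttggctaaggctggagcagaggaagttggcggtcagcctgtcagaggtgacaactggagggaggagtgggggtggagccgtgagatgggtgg
The Ptgs2 window begins 250 bases before the outermost start of the gene (chr1:150100031-150108234), while the windows of Ptges (chr2:30889471-30931020) and Ptgs1 (chr2:36216742-36258593) lie inside the annotated span of the gene, at an inner start. The Ptgs2 window held 1 GC box, 2 C/EBP matches and 1 short cyclic AMP element. The Ptges window held 2 GC boxes and 1 C/EBP match, and the Ptgs1 window held none of the 6 motifs. Among 32851 promoters of the same length, 35.7% held the GC box letters, 40.7% the C/EBP letters and 20.8% the short cyclic AMP element. The others were rarer: 13.6% held TATAAA, 7.81% the AP-1 letters and 8.46% the NF-kB motif. These matches are common letters, and binding at them was not measured. GC content was 59.3% for Ptgs2, 60% for Ptges and 50.7% for Ptgs1, against a median of 52.7% over all promoters.

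The first question was which members changed when the ligament was torn. Ptgs2 was higher in the injured than in the contralateral joint in 8 of 9 comparisons of a strain at a time, by 2.07-fold to 8.54-fold. Ptges was higher in 2 comparisons, both in STR/ort. The other 8 members were called in none of the 9, with exceptions under other settings given below for Hpgds and Alox5ap. Counted over the 10 members, each of the 10 calls was an increase. At 1-day the members called higher were 1 in STR/ort (1.61% of all genes higher, 4.31% called either way), 1 in C57BL/6 (4.26% of all genes higher, 5.6% called either way) and 1 in MRL/MpJ (1.53% of all genes higher, 2.02% called either way). At 1-week they were 2 in STR/ort (5.67% of all genes higher, 9.21% called either way), 1 in C57BL/6 (4.75% of all genes higher, 5.82% called either way) and 1 in MRL/MpJ (2.93% of all genes higher, 3.13% called either way). At 2-weeks they were 2 in STR/ort (4.34% of all genes higher, 4.66% called either way), 1 in C57BL/6 (2.88% of all genes higher, 2.95% called either way) and 0 in MRL/MpJ (1.14% of all genes higher, 1.16% called either way). Without regard to size, injured and contralateral libraries did not overlap at 1-day for 1 in STR/ort (7.43%), 4 in C57BL/6 (9.88%) and 1 in MRL/MpJ (5.96%), with the share of all genes in brackets. Such members were 5 in STR/ort (13.7%), 3 in C57BL/6 (10%) and 2 in MRL/MpJ (8.75%) at 1-week and 2 in STR/ort (9.57%), 1 in C57BL/6 (10.2%) and 0 in MRL/MpJ (1.98%) at 2-weeks. The members' median log2 fold change lay between -0.17 and 0.14 in the 9 comparisons, and that of all genes between -0.03 and 0.01.

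Ptgs2 was measured from few reads, with 2 to 254 counts a library and a median of 29. At 1-day its contralateral levels were 1.58, 2.89, 2.15, 2.74 and 2.56 CPM in STR/ort, and its injured levels were 10.7, 11.1, 6.42, 9.72 and 17.2 CPM. In C57BL/6 the contralateral libraries held 2.02, 1.29, 1.35, 1.39 and 1.95 CPM and the injured ones 6.87, 4.08, 3.81, 11.7 and 7.15 CPM. In MRL/MpJ they held 0.752, 0.976, 0.531, 0.704 and 0.737 CPM against 3.75, 4.69, 3.13, 3.04 and 3.57 CPM. In each strain every injured library lay above every contralateral one. The log2 fold changes were close to each other, at 2.19 ± 0.25 in STR/ort (adjusted p = 1.97e-07), 2.13 ± 0.27 in C57BL/6 (adjusted p = 9.19e-07) and 2.30 ± 0.35 in MRL/MpJ (adjusted p = 5.64e-05).

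At 1-week Ptgs2 was again called higher in injured joints of all 3 strains. STR/ort injured libraries held 29.5, 14.1, 13.6, 19.7 and 25.1 CPM of Ptgs2 against 3.52, 1.81, 1.64 and 2.7 CPM in contralateral ones. C57BL/6 held 5.25, 9.17, 5.11, 6.95 and 10.5 CPM against 0.693, 1.58, 2.95, 1.62 and 2.75 CPM. MRL/MpJ held 4.0, 4.32, 10.5, 3.95 and 3.12 CPM against 0.791, 0.35, 1.01 and 0.917 CPM. Injured and contralateral libraries again did not overlap in any strain, and the log2 fold changes were 3.09 ± 0.35 in STR/ort (adjusted p = 1.33e-07), 1.94 ± 0.34 in C57BL/6 (adjusted p = 0.000151) and 2.77 ± 0.47 in MRL/MpJ (adjusted p = 0.000181). One MRL/MpJ library, replicate 3, was far above the rest at 10.5 CPM. Without it the MRL/MpJ log2 fold change was 2.31.

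At 2-weeks Ptgs2 was called higher with injury in 2 strains, STR/ort and C57BL/6. STR/ort injured libraries held 8.57, 8.25, 6.25, 5.76 and 11.4 CPM against 1.76, 3.95, 4.04, 2.44 and 3.16 CPM, without overlap, a log2 fold change of 1.39 ± 0.23 (adjusted p = 3.79e-05). In C57BL/6 they held 3.77, 1.43, 3.12, 3.99 and 2.02 CPM against 1.79, 1.28, 1.23, 1.74 and 1.01 CPM. These overlapped, and the log2 fold change was 1.05 ± 0.30 (adjusted p = 0.0254), a call that was lost without any 1 of injured replicates 1 and 4 or contralateral replicates 2, 3 and 5 (adjusted p up to 0.104). In MRL/MpJ the values of 1.14, 1.28, 0.687, 1.67 and 1.59 CPM overlapped with 0.582, 0.709, 0.356, 1.26 and 0.599 CPM in contralateral joints, and the log2 difference of 0.84 ± 0.38 was not called (adjusted p = 0.569, unadjusted p = 0.0361). Both joints of a number came from 1 animal at 2-weeks, and in each of the 5 MRL/MpJ animals as the labels give them, the injured joint was the higher one, although same-numbered joints of that group did not deviate together over all genes. With the animal as a block the log2 difference was 0.85 ± 0.31 (adjusted p = 0.297).

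A call in one strain and none in another does not show that the strains responded differently, so the injury effects were also compared with each other. None of the 9 such differences was called for Ptgs2. The widest, STR/ort minus C57BL/6 at 1-week, was 1.15 ± 0.51 on the log2 scale (adjusted p = 0.376, interval of 2 standard errors 0.12 to 2.18). At 1-day STR/ort minus MRL/MpJ was -0.12 ± 0.42 and at 2-weeks it was 0.55 ± 0.47, with intervals of -0.95 to 0.72 and -0.39 to 1.48. At these counts a several-fold difference in response between strains falls inside some of these intervals.

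Markers of synovial fibroblasts (Prg4, Pdgfra, Pdpn, Thy1) moved with injury too. Of the 4, the number called higher in injured joints was 1 in STR/ort, 3 in C57BL/6 and 2 in MRL/MpJ at 1-day, 2, 4 and 4 at 1-week, and 3 in each strain at 2-weeks, and none was called lower or was at 0. Their summed level in injured joints at 1-week averaged 8860 CPM (7320 to 11100) against 10900 CPM (6260 to 18900) in STR/ort, 2770 CPM (2600 to 2940) against 1090 CPM (919 to 1370) in C57BL/6 and 2930 CPM (2620 to 3200) against 1370 CPM (1330 to 1410) in MRL/MpJ. At 1-day it averaged 8120 CPM (5640 to 10100) against 7950 CPM (6630 to 9400) in STR/ort, 3800 CPM (3080 to 4380) against 2050 CPM (1770 to 2400) in C57BL/6 and 3270 CPM (2430 to 4230) against 1920 CPM (1390 to 2280) in MRL/MpJ. At 2-weeks it averaged 2530 CPM (2110 to 2870) against 1470 CPM (1160 to 2240) in STR/ort, 1150 CPM (980 to 1340) against 485 CPM (399 to 594) in C57BL/6 and 1190 CPM (754 to 1530) against 574 CPM (504 to 652) in MRL/MpJ. Their part in the injury differences of Ptgs2 and Ptges was not tested. Skeletal muscle markers (Acta1, Ckm, Myh4, Mylpf, Tnnt3) were called lower in injured joints for 3 of 5 in STR/ort at 1-day, for 5 of 5 in STR/ort at 1-week and for 1 of 5 in C57BL/6 at 1-week, and for none in the other 6 injury comparisons. In STR/ort their sum averaged 20600 CPM (13900 to 35300) against 33800 CPM (26600 to 46000) at 1-day and 17300 CPM (11600 to 25600) against 31000 CPM (24000 to 47100) at 1-week. Cartilage markers (Acan, Col2a1, Comp, Matn3, Hapln1) were called higher for 3 of 5 in STR/ort, 2 in C57BL/6 and 1 in MRL/MpJ at 2-weeks, and for 1, 2 and 1 at 1-week. At 1-day 1 of 5 was called lower in STR/ort and 1 in C57BL/6. In STR/ort at 2-weeks, where Ptgs2 and Ptges were both called, their sum was 4730 CPM (3750 to 5470) in injured against 2570 CPM (2150 to 3230) in contralateral joints, without overlap. None of these markers was at 0, and their part was not tested either.

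**Figure D1:**
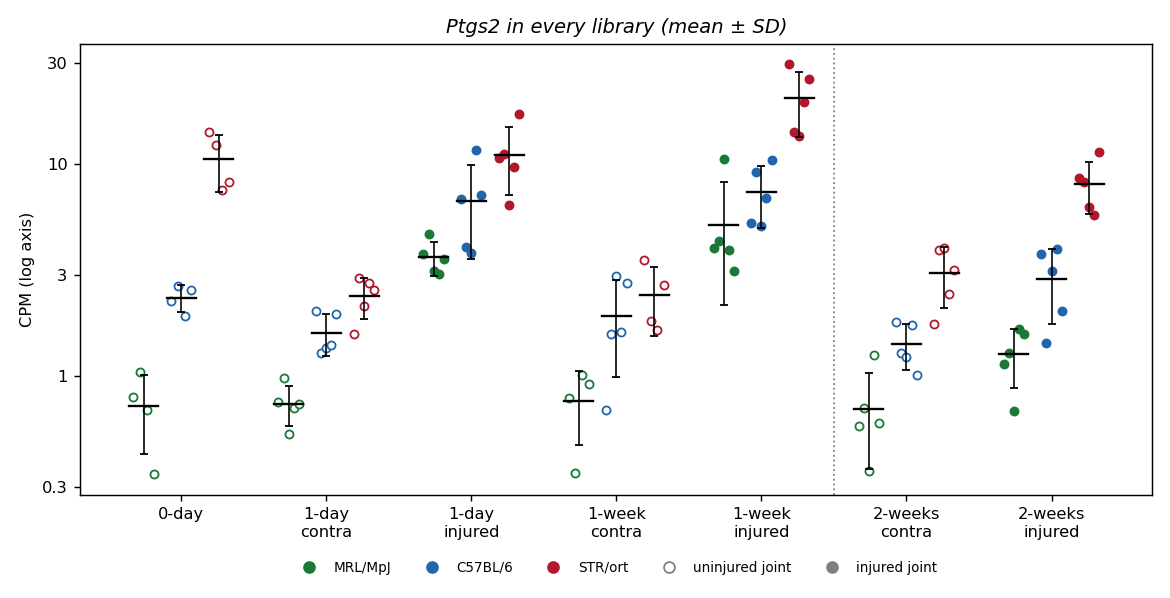
Ptgs2 in each of the 100 libraries, in CPM on a log axis, by time and joint (contra, contralateral), colored by strain, with the mean ± SD of each group. Open points are uninjured joints and filled points injured ones, and the dotted line sets off the 2-weeks batch. STR/ort has the highest mean at each time in both joints, and its 0-day libraries (7.52 to 14.2 CPM) lie above its later contralateral libraries.

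**Figure D2:**
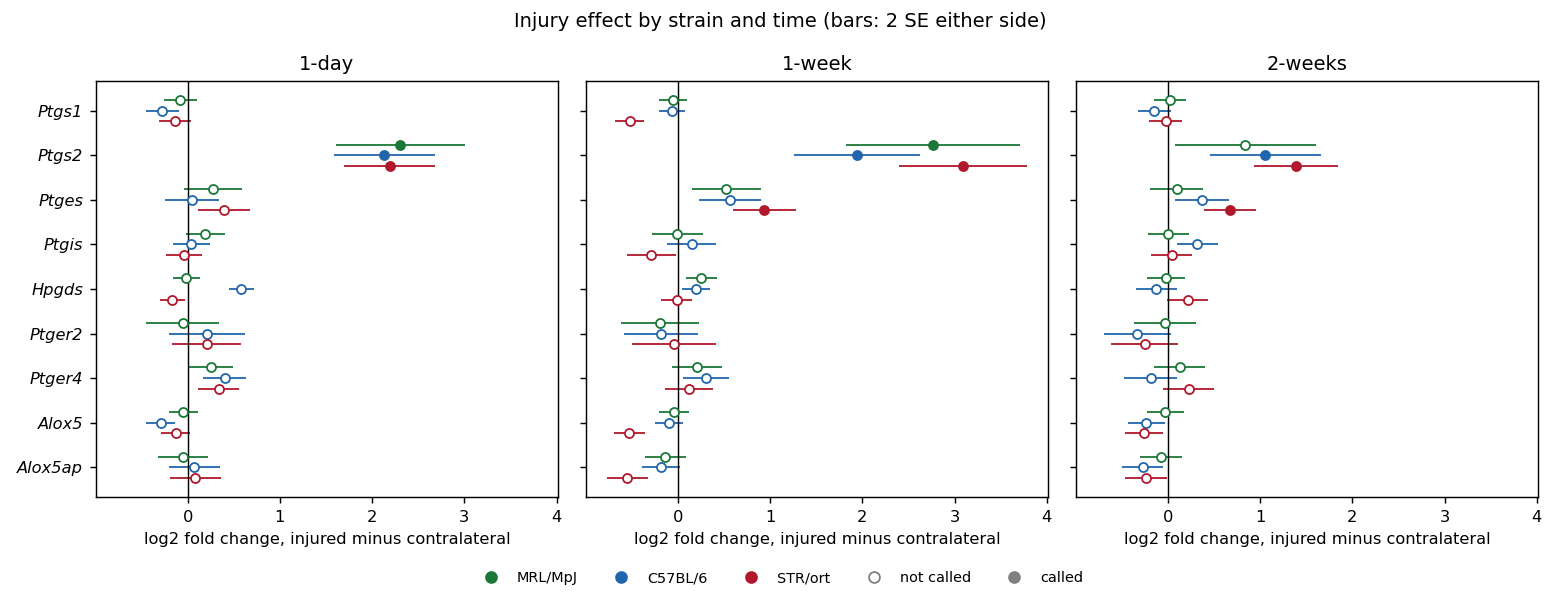
Log2 fold change between injured and contralateral joints (x axis) for 9 members, all but Ptgds, with 1 panel for each time after injury. Points are colored by strain, bars span 2 standard errors either side, and filled points were called. Filled points occur for Ptgs2 in 8 of 9 comparisons and for Ptges in STR/ort at 1-week and 2-weeks.

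The level of Ptgs2 itself differed between strains more often than its response did. Its group means fell in the order STR/ort, C57BL/6, MRL/MpJ in all 7 sets of time and joint. In injured joints at 1-day STR/ort exceeded MRL/MpJ by 1.59 ± 0.23 (adjusted p = 1.9e-06) and C57BL/6 exceeded MRL/MpJ by 0.94 ± 0.25 on the log2 scale (adjusted p = 0.00273, groups overlapping). The difference of 0.65 ± 0.22 between STR/ort and C57BL/6 (adjusted p = 0.0248) rested on overlapping groups and was lost without STR/ort injured replicate 5, or C57BL/6 injured replicate 2 or 3. In injured joints at 1-week STR/ort was 3.82-fold above MRL/MpJ (adjusted p = 1.02e-06) and 2.7-fold above C57BL/6 (adjusted p = 4.99e-05). At 2-weeks it was 6.26-fold above MRL/MpJ (adjusted p = 7.26e-10) and 2.74-fold above C57BL/6 (adjusted p = 1.18e-05), and none of these 4 pairs of groups overlapped. Between C57BL/6 and MRL/MpJ, injured joints were not called apart at 1-week (0.50 ± 0.295, adjusted p = 0.256) and differed at 2-weeks by 1.19 ± 0.29 (adjusted p = 0.0022, groups overlapping). In injured joints at 1-week STR/ort was called higher in all 4 synovial fibroblast markers against MRL/MpJ and in 3 of them against C57BL/6, at the summed levels given above. It was called higher in 5 of 5 cartilage markers against each, with a sum of 5160 CPM (3390 to 6610) against 1920 CPM (1200 to 2820) in MRL/MpJ and 2390 CPM (1690 to 3770) in C57BL/6. Against MRL/MpJ 5 of 5 cartilage markers were also higher in injured joints at 1-day (median log2 fold change 1.17) and 2-weeks (1.25), with 2 and 3 of 4 synovial fibroblast markers. All 5 muscle markers were called lower in STR/ort against each other strain there, with sums of 44300 CPM (35800 to 59900) in MRL/MpJ and 35000 CPM (22400 to 45200) in C57BL/6, and at 1-day 5 of 5 were lower against MRL/MpJ and 4 of 5 against C57BL/6. At 2-weeks against C57BL/6 no cartilage marker and 2 synovial fibroblast markers were called, both higher. In C57BL/6 against MRL/MpJ 3 of 5 cartilage and 3 of 4 synovial fibroblast markers were higher at 1-day, and 5 of 5 and 1 of 4 at 2-weeks. Macrophage markers were higher for 5 of 6 (median 0.74) and mast cell markers for 2 of 6 in that 1-day comparison, and 4 of 6 macrophage markers (median -0.72) were lower in STR/ort than in C57BL/6. The part of these markers in the Ptgs2 differences was not tested.

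Contralateral joints showed the same order of group means. STR/ort exceeded MRL/MpJ by 1.71 ± 0.37 at 1-day (adjusted p = 0.000315), 1.61 ± 0.56 at 1-week (adjusted p = 0.0201) and 2.10 ± 0.34 at 2-weeks (adjusted p = 1.13e-05). The 1-week call was lost without MRL/MpJ contralateral replicate 2 or STR/ort contralateral replicate 1, and with a factor from housekeeping genes in the model, where the log2 fold change was 1.92 (adjusted p = 0.0966). C57BL/6 exceeded MRL/MpJ by 1.11 ± 0.39 at 1-day (adjusted p = 0.0268), a call lost without MRL/MpJ replicate 3, 4 or 5 or C57BL/6 replicate 5. At 2-weeks STR/ort exceeded C57BL/6 by 1.12 ± 0.30 (adjusted p = 0.00579, groups overlapping). Other genes moved with the contralateral difference between STR/ort and MRL/MpJ. At 1-day STR/ort was called higher in 4 of 5 immediate early genes, 3 of 4 synovial fibroblast markers and 5 of 5 cartilage markers and lower in 4 of 5 muscle markers. At 1-week it was called higher in 0 of 5, 4 of 4 and 5 of 5 and lower in 5 of 5, and at 2-weeks higher in 2 of 5, 2 of 4 and 5 of 5 and lower in 0 of 5, in the same order of lists. In C57BL/6 against MRL/MpJ at 1-day 5 of 5 cartilage, 3 of 4 synovial fibroblast and 3 of 6 macrophage markers were called higher and 1 of 5 muscle markers lower. In STR/ort against C57BL/6 at 2-weeks 3 of 5 immediate early genes, 1 of 4 synovial fibroblast and 1 of 6 mast cell markers were called higher. Called lower there were 1 of 5 cartilage and 1 of 6 macrophage markers. Their part in the Ptgs2 differences was not tested.

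Before injury STR/ort stood apart. The 4 STR/ort libraries at 0-day held 14.2, 12.3, 7.52 and 8.22 CPM of Ptgs2, those of C57BL/6 held 2.26, 2.65, 1.92 and 2.55 CPM, and those of MRL/MpJ held 0.799, 1.05, 0.689 and 0.345 CPM. No 2 strains overlapped. C57BL/6 was above MRL/MpJ by 1.66 ± 0.36 on the log2 scale (adjusted p = 0.00142). Between these strains 5 of 5 cartilage markers (median 1.2), 4 of 4 synovial fibroblast markers (median 0.78), 3 of 6 macrophage and 3 of 6 mast cell markers were also called higher in C57BL/6, and 5 of 5 muscle markers lower (median -0.71), a part that was not tested. In STR/ort against MRL/MpJ at 0-day 2 of 4 synovial fibroblast, 1 of 5 cartilage and 1 of 6 mast cell markers were called higher. Called lower were 1 of 6 neutrophil and 1 of 6 macrophage markers. The synovial fibroblast sum averaged 4480 CPM (2610 to 6230) in STR/ort and 1230 CPM (1060 to 1420) in MRL/MpJ. The part of these markers was not tested either. The STR/ort mean of 10.6 ± 3.21 CPM (SD, n = 4) was the third highest of the 21 groups, close to the 11 ± 3.92 CPM (SD, n = 5) of injured STR/ort joints at 1-day. Contralateral STR/ort joints taken later were lower than this starting level, by a log2 fold change of -2.16 ± 0.30 at 1-day (adjusted p = 1.56e-07) and -2.17 ± 0.34 at 1-week (adjusted p = 6.15e-07). No such change was called in C57BL/6 or MRL/MpJ. Between the same STR/ort groups all 5 immediate early genes were called lower at both times (medians -1.93 and -2.14), as were all 5 muscle markers, with sums of 33800 CPM at 1-day and 31000 CPM at 1-week against 66500 CPM at 0-day. Macrophage markers were called higher for 3 and 4 of 6, and synovial fibroblast markers for 2 and 4 of 4. Their part in the fall of Ptgs2 was not tested.

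The 0-day STR/ort libraries also stood apart in immediate early genes, which cells switch on quickly when stimulated. The summed level of Fos, Egr1, Jun, Junb and Atf3 averaged 1270 CPM (range 888 to 1680) in them, against 139 CPM (119 to 170) in C57BL/6 and 134 CPM (126 to 144) in MRL/MpJ. Each of the 5 passed the test for a higher level in STR/ort against C57BL/6 and against MRL/MpJ, and none of them was at 0. The 2 STR/ort libraries with the higher sums, 1676 and 1573 CPM, were those with the higher Ptgs2. Their part in the 0-day level of Ptgs2 was not tested. At 1-week the sum averaged 223 CPM (173 to 265) in injured STR/ort joints against 171 CPM (132 to 208) in contralateral ones, and none of the 5 genes was called between them. Of the 5, 1 was called higher with injury in C57BL/6 and 1 in MRL/MpJ at 1-day, and none in the other injury comparisons. Between strains in injured joints, STR/ort was called higher against MRL/MpJ in 3 of the 5 at 1-day, 0 at 1-week and 3 at 2-weeks. Against C57BL/6 it was called higher in 1 at 1-day, 3 at 1-week and 2 at 2-weeks. The part of these genes in those differences of Ptgs2 was not tested either. At 1-day replicate 5 of both STR/ort joints had a high sum (637.5 CPM injured, 656 CPM contralateral), and without the injured one the Ptgs2 injury effect in STR/ort was 1.99 on the log2 scale.

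**Figure D3:**
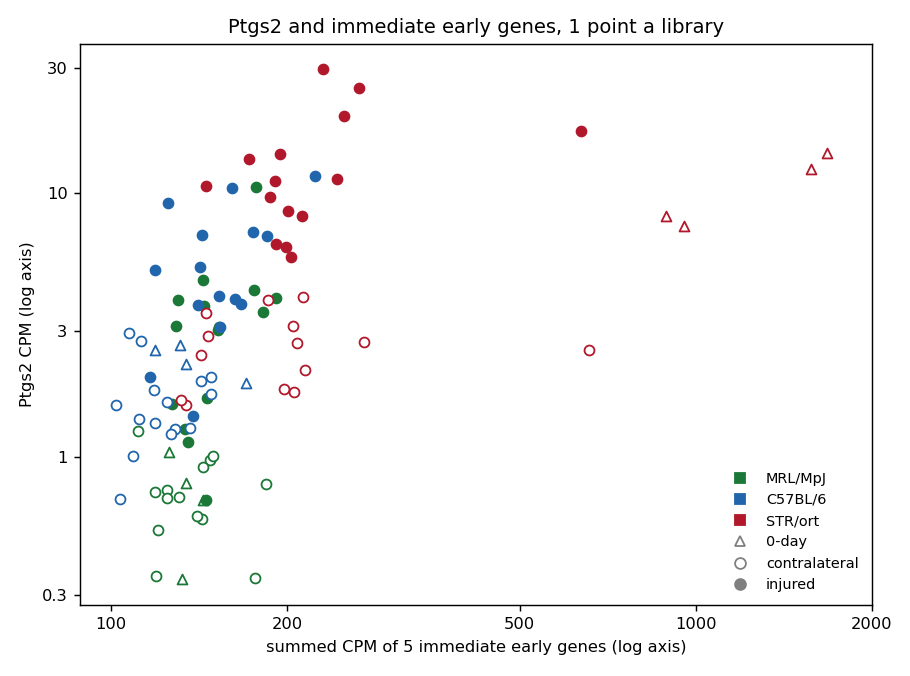
Ptgs2 (y axis, CPM) against the summed level of 5 immediate early genes (x axis, CPM), both on log axes, 1 point per library, colored by strain; triangles are 0-day, open circles contralateral and filled circles injured joints. The 4 STR/ort libraries of 0-day lie to the right, between 888 and 1680 CPM, and the injured STR/ort libraries of 1-week, the group with the highest mean of Ptgs2, between 173 and 265 CPM.

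From 1-day to 1-week after injury Ptgs2 went further up in STR/ort, by 0.89 ± 0.23 (adjusted p = 0.00164), although the 1-day and 1-week libraries overlapped. It was not called between these times in C57BL/6 or MRL/MpJ. In injured STR/ort joints the cartilage sum averaged 3610 CPM (2940 to 4650) at 1-day and 5160 CPM (3390 to 6610) at 1-week. That of synovial fibroblasts averaged 8120 CPM (5640 to 10100) and 8860 CPM (7320 to 11100). That of immediate early genes averaged 270 CPM (146 to 638) and 223 CPM (173 to 265). Their part in the change of Ptgs2 was not tested.

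Ptgs1, the constitutive cyclooxygenase, was called in none of the 48 comparisons. Its group means stayed between 33.0 and 52.0 CPM. The largest injury difference was in STR/ort at 1-week, where injured libraries held 33.0, 33.2, 31.5, 32.4 and 34.9 CPM and contralateral ones 50, 42.3, 50.7 and 45.4 CPM. The groups did not overlap, and the log2 fold change of -0.52 ± 0.08 (adjusted p = 8.95e-06) was under the fold threshold. With the housekeeping factor Ptgs1 was called lower in injured STR/ort than MRL/MpJ joints at 1-week, at -0.73. Ptgs1 is abundant in platelets. The summed platelet markers (Pf4, Ppbp, Itga2b, Gp9) averaged 498 CPM (412 to 564) in the injured and 744 CPM (537 to 940) in the contralateral joints of this set, with 2 of 4 called lower and none at 0, and their part in the Ptgs1 difference was not tested.

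Among the terminal synthases, Ptges, the inducible microsomal prostaglandin E synthase that works downstream of COX-2, was the only one called for injury. In STR/ort at 1-week the injured libraries held 19.3, 16.7, 13.0, 11.9 and 11.6 CPM and the contralateral ones 10.9, 7.98, 6.17 and 5.18 CPM. Every injured library lay above every contralateral one, and the log2 fold change was 0.94 ± 0.17 (adjusted p = 0.000159). In STR/ort at 2-weeks they held 9.55, 8.25, 8.57, 8.1 and 11.7 CPM against 5.16, 5.08, 6.66, 6.05 and 6.13 CPM, again without overlap, with a log2 fold change of 0.67 ± 0.14 (adjusted p = 0.000878). Without injured replicate 5 this was 0.57, under the fold threshold.

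Ptges also differed by injury at 1-week in C57BL/6, where 6.18, 6.76, 6.48, 9.39 and 8.48 CPM did not overlap with 4.62, 5.65, 5.72, 5.1 and 4.72 CPM. The log2 fold change of 0.57 ± 0.17 (adjusted p = 0.0265) was under the fold threshold. In MRL/MpJ at 1-week 7.82, 6.93, 7.19, 6.61 and 7.12 CPM likewise did not overlap with 4.75, 4.31, 5.44 and 5.71 CPM, and the log2 difference of 0.53 ± 0.19 did not pass the test (adjusted p = 0.124). None of the 9 differences in response between strains was called for Ptges. STR/ort minus MRL/MpJ at 2-weeks came to 0.58 ± 0.20 (adjusted p = 0.25), with an interval of 0.18 to 0.98. At 1-week STR/ort minus C57BL/6 came to 0.37 ± 0.24, with an interval of -0.11 to 0.86.

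In injured joints Ptges was higher in STR/ort than in MRL/MpJ at 1-day (log2 fold change 0.75 ± 0.14, adjusted p = 8.37e-05) and at 1-week (0.99 ± 0.16, adjusted p = 4.04e-06). It was also higher than in C57BL/6 at 1-week (0.92 ± 0.15, adjusted p = 1.26e-05). The cartilage, synovial fibroblast and muscle markers moved between the same groups, as given for Ptgs2, and their part in the Ptges differences was not tested. In contralateral joints at 1-day Ptges was lower in MRL/MpJ than in STR/ort and C57BL/6, by 1.55-fold and 1.58-fold. The groups overlapped and each call was lost when MRL/MpJ contralateral replicate 3 was left out (log2 fold changes 0.55 and 0.58). The first was also lost without MRL/MpJ replicate 4 or STR/ort replicate 2, and the second without C57BL/6 replicate 2. From 1-day to 1-week injured STR/ort joints differed in Ptges by 0.57 ± 0.14 (adjusted p = 0.00112) without overlap, under the fold threshold. It was called there with RLE size factors (0.60, adjusted p = 0.000548) and with DESeq2 (0.60, adjusted p = 0.000215). The marker sums of these groups are given above for Ptgs2, and their part was not tested. Over the 21 groups the mean log2 levels of Ptgs2 and Ptges had a Pearson r of 0.75, as a description of groups that share strains and batches.

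Ptgis, the prostacyclin synthase of blood vessels and connective tissue, was called in none of the injury comparisons but in 8 comparisons between strains. At 1-day contralateral MRL/MpJ joints held 29.6, 24.5, 22.2, 31.4 and 32.6 CPM. Those of STR/ort held 49.7, 61.8, 51.2, 46.4 and 59.7 CPM and those of C57BL/6 50.6, 47.7, 44.1, 43.2 and 44.8 CPM. MRL/MpJ was below both without overlap, by 1.97-fold (adjusted p = 4.64e-09) and 1.68-fold (adjusted p = 1.29e-06). Injured joints at 1-day showed the same, at 1.68-fold against STR/ort (adjusted p = 6.17e-07) and 1.51-fold against C57BL/6 (adjusted p = 3.04e-05), the second of which fell under the fold threshold without MRL/MpJ injured replicate 3 or 5 or C57BL/6 injured replicate 1, 2 or 5. With a factor from housekeeping genes in the model both fell under it, at 0.51 and 0.50 on the log2 scale.

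At 1-week C57BL/6 had joined MRL/MpJ at the lower Ptgis level. Contralateral C57BL/6 joints held 26.4, 18.8, 24.7, 25.1 and 32.6 CPM and MRL/MpJ ones 31.6, 30.1, 32.2 and 34.1 CPM, against 77.1, 52.7, 62.9 and 55.7 CPM in STR/ort. STR/ort was 2.46-fold above C57BL/6 (adjusted p = 7.89e-09) and 1.97-fold above MRL/MpJ (adjusted p = 2.29e-06), without overlap. In injured joints STR/ort was 1.81-fold above C57BL/6 (adjusted p = 2.35e-06) and 1.62-fold above MRL/MpJ (adjusted p = 3.5e-05). With a factor from housekeeping genes in the model, the difference from MRL/MpJ was 0.20 in contralateral and -0.05 in injured joints on the log2 scale, and that from C57BL/6 in injured joints was 0.22, all 3 no longer called.

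Ptgis also differed over time within batch 1. C57BL/6 contralateral joints at 1-week were 1.9-fold below those of 0-day, which held 38.8, 49.2, 47.3 and 55.0 CPM (adjusted p = 1.48e-07). Injured C57BL/6 joints at 1-week, with 24.3, 25.5, 31.0, 25 and 33.7 CPM, were 1.69-fold below those of 1-day (adjusted p = 1.82e-06). STR/ort moved the other way, its contralateral joints being 1.53-fold above 0-day at 1-day (adjusted p = 0.00011) and 1.75-fold above it at 1-week (adjusted p = 1.39e-06). The 1-day call was lost without contralateral replicate 2 or 5, and both STR/ort calls were lost with the housekeeping factor. At 2-weeks Ptgis was called in no comparison.

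The synovial fibroblast markers moved in the direction of Ptgis in the strain and time comparisons given next. With injury they rose where Ptgis was not called. In C57BL/6 all 4 were called lower in contralateral joints at 1-week than at 0-day, with a summed mean of 1090 CPM (919 to 1370) against 2140 CPM (1630 to 2780), and all 5 cartilage markers were called lower too. In contralateral STR/ort joints 2 of 4 were called higher at 1-day than at 0-day. At 1-week all 4 were, at 10900 CPM (6260 to 18900) against 4480 CPM (2610 to 6230). At 1-day the contralateral joints of STR/ort and of C57BL/6, both above MRL/MpJ in Ptgis, were each called higher than MRL/MpJ in 3 of 4 and in 5 of 5 cartilage markers. In contralateral joints at 1-week STR/ort was called higher in all 4, and in all 5 cartilage markers, against each other strain. In injured C57BL/6 joints, where Ptgis was lower at 1-week than at 1-day, 1 of 4 was called lower, beside 4 of 6 macrophage markers (median -0.68) and 3 of 6 mast cell markers, with 1 mast cell marker called higher. With injury at 1-week all 4 were called higher in C57BL/6 (median 1.34) and MRL/MpJ (median 1.16), where Ptgis was not called (adjusted p = 0.573 and 0.996). Of 3 endothelial markers none was called in contralateral joints at 1-week in STR/ort against MRL/MpJ (median -0.23). Against C57BL/6 there 1 was called lower (median -0.19), with a sum of 218 CPM (199 to 242) against 253 CPM (232 to 270). In injured joints at 1-week 1 was called higher against MRL/MpJ (median 0.26) and none against C57BL/6 (median 0.2). No marker of these lists was at 0 in any group, and their part in the Ptgis differences was not tested.

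Hpgds, the hematopoietic prostaglandin D synthase of mast cells and macrophages, gave the only differences in injury response between strains that were called for a member. At 1-day injured C57BL/6 joints held 48.1, 44.9, 48.9, 47.1 and 46.2 CPM against 25.1, 31.5, 32.8, 31.5 and 35.3 CPM in contralateral ones, without overlap. The log2 fold change of 0.58 ± 0.07 (adjusted p = 3.11e-07) was just under the threshold of 1.5-fold. It passed with the replicate block (0.59, adjusted p = 4.3e-06) and with filterByExpr (0.59). In STR/ort injured joints held 35.6, 38.5, 32.0, 34.1 and 35.2 CPM against 41.0, 39.5, 36.0, 37.7 and 39.2 CPM, and in MRL/MpJ 34.5, 28.1, 35.3, 31.9 and 29.4 CPM against 31.1, 32.3, 35.3, 32.2 and 31.8 CPM. Neither of these was called, and the groups overlapped.

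The Hpgds response of STR/ort at 1-day was below that of C57BL/6 by a log2 difference of -0.75 ± 0.10 (adjusted p = 1.36e-05), and 2.66% of all genes were called in that comparison of responses. That of C57BL/6 was above that of MRL/MpJ by 0.60 ± 0.10 (adjusted p = 0.00274), where 0.318% of all genes were called. The second fell under the fold threshold without MRL/MpJ injured replicate 2 or 5, MRL/MpJ contralateral replicate 3 or C57BL/6 contralateral replicate 1 (log2 differences down to 0.52). STR/ort and MRL/MpJ were not called apart (0 of 10 members, 0.162% of all genes), at -0.15 ± 0.10. No member was called in the 3 comparisons of responses at 1-week (0.884%, 0.491% and 0% of all genes called) or the 3 at 2-weeks (0.451%, 0.0462% and 0%).

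Macrophage markers (Adgre1, Csf1r, Cd68, Mrc1, C1qa, Cd163) moved with Hpgds. Their sum averaged 856 CPM (773 to 934) in injured C57BL/6 joints at 1-day against 602 CPM (569 to 647) in contralateral ones, with 2 of 6 called higher. It was 564 CPM (547 to 580) against 562 CPM (523 to 614) in STR/ort and 477 CPM (415 to 500) against 413 CPM (364 to 444) in MRL/MpJ, with none called. The 6 mast cell markers (Cpa3, Cma1, Mcpt4, Tpsb2, Ms4a2, Hdc) summed to 72.4 CPM (67.1 to 84) against 84.9 CPM (74.6 to 99.9) in C57BL/6, and none was called. No marker of either list was at 0, and their part in the Hpgds result was not tested.

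Hpgds was also higher in contralateral STR/ort joints at 1-day than at 0-day, where it held 26.7, 21.7, 27.1 and 23.6 CPM. The change was 1.56-fold without overlap (adjusted p = 2.28e-08), and with the housekeeping factor it was 0.52 on the log2 scale, under the fold threshold. Macrophage markers stood at 562 CPM there against 369 CPM (338 to 418) at 0-day, with 3 of 6 called higher (median log2 fold change 0.59). Of the mast cell markers 2 of 6 were called higher (median 0.62), and all 5 muscle markers were called lower (median -1.09). Their part was not tested. All 30 libraries of the 2-weeks batch lay between 10.2 and 19.0 CPM of Hpgds, below all 70 of batch 1, which lay between 21.7 and 48.9 CPM. Time and batch cannot be told apart in that difference.

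**Figure D4:**
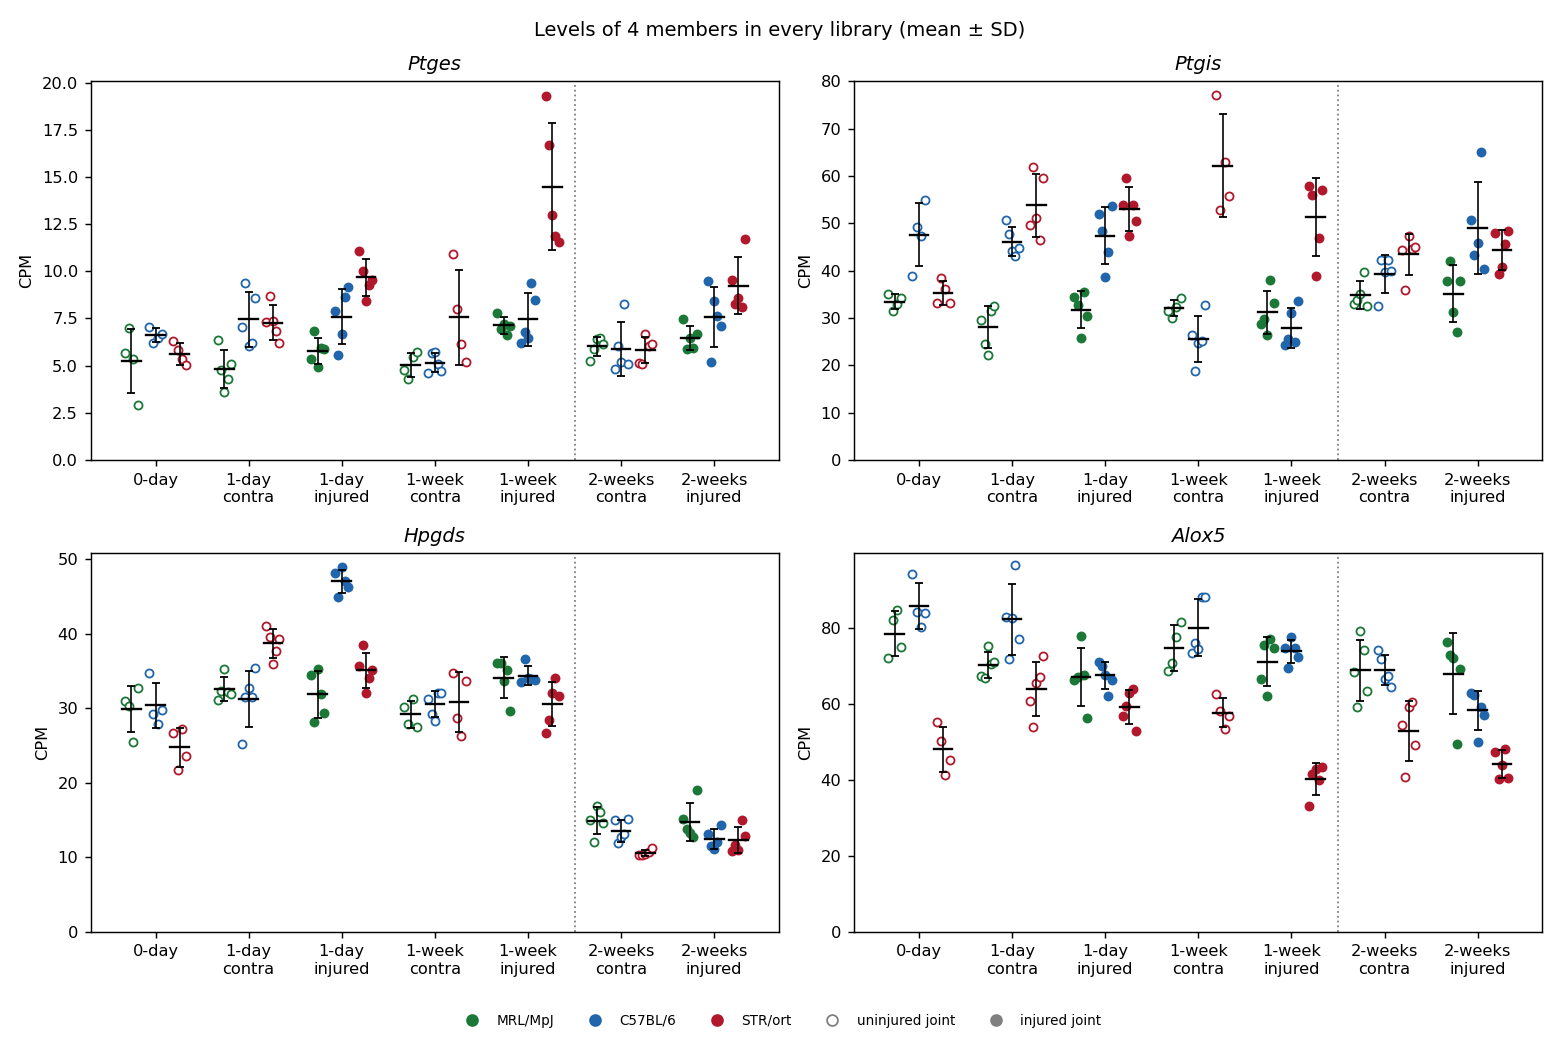
Ptges, Ptgis, Hpgds and Alox5 in each library, in CPM, by time and joint (contra, contralateral) with mean ± SD, colored by strain; open points are uninjured and filled points injured joints, and the dotted line sets off the 2-weeks batch. Ptges is highest in injured STR/ort joints at 1-week (11.6 to 19.3 CPM), Hpgds in injured C57BL/6 joints at 1-day (44.9 to 48.9 CPM), and Alox5 is lowest in injured STR/ort joints at 1-week (33.2 to 43.5 CPM).

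The prostaglandin E2 receptors EP2 (Ptger2) and EP4 (Ptger4), both of which raise cyclic AMP, were called in none of the 48 comparisons. Ptger2 group means lay between 2.41 and 3.78 CPM in batch 1 and between 4.12 and 5.42 CPM at 2-weeks. Time and batch cannot be told apart in that difference. Its injury log2 fold changes lay between -0.33 and 0.21. Ptger4 group means lay between 6.88 and 12.4 CPM, and 8 of its 9 injury log2 fold changes were positive, from -0.19 to 0.40. The highest, in C57BL/6 at 1-day, was 0.40 ± 0.12 (adjusted p = 0.0134) between groups that did not overlap, and it was under the fold threshold.

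In the leukotriene arm, Alox5 encodes 5-lipoxygenase, an enzyme of neutrophils and other myeloid cells. It was called lower in STR/ort in 5 comparisons between strains and in no injury comparison. At 0-day STR/ort joints held 55.3, 50.2, 41.5 and 45.4 CPM, MRL/MpJ ones 72.3, 82.2, 84.7 and 75.0 CPM and C57BL/6 ones 94.4, 84.3, 80.3 and 84.0 CPM. All 4 STR/ort libraries were below the 8 others, by a log2 fold change of -0.70 ± 0.09 against MRL/MpJ (adjusted p = 6.91e-06) and -0.87 ± 0.09 against C57BL/6 (adjusted p = 5.8e-07).

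Injured joints at 1-week showed the gap again. STR/ort held 33.2, 41.5, 43.0, 40.0 and 43.5 CPM of Alox5, MRL/MpJ 66.5, 75.5, 62.1, 77.2 and 74.8 CPM and C57BL/6 74.9, 69.4, 77.8, 74.8 and 72.5 CPM. The log2 fold changes were -0.84 ± 0.08 (adjusted p = 4.83e-10) and -0.89 ± 0.08 (adjusted p = 2.82e-10). At 2-weeks the difference from MRL/MpJ in injured joints was -0.62 ± 0.10 (adjusted p = 9.55e-06), which fell under the fold threshold without MRL/MpJ replicate 1 or STR/ort replicate 2. Within STR/ort at 1-week the injured libraries were all below the contralateral ones, at 62.7, 58.3, 53.4 and 56.7 CPM, with a log2 fold change of -0.52 ± 0.08 (adjusted p = 2.73e-05) that was under the threshold of 1.5-fold. With the housekeeping factor Alox5 was also called lower in contralateral STR/ort joints at 1-week, by -0.62 against MRL/MpJ and -0.69 against C57BL/6 on the log2 scale.

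Alox5ap encodes the protein that presents arachidonic acid to 5-lipoxygenase. It was called in none of the 48 comparisons. Its group means lay between 91.7 and 133 CPM in batch 1 and between 65 and 86.9 CPM at 2-weeks. Time and batch cannot be told apart in that difference either. In STR/ort at 1-week its injured libraries held 83.4, 99.6, 82.9, 98.2 and 94.7 CPM and its contralateral ones 141.0, 127.0, 152.0 and 112.0 CPM, without overlap, a log2 fold change of -0.55 ± 0.11 (adjusted p = 0.000589) under the fold threshold. With a factor from housekeeping genes in the model it was called here, at -0.61 (adjusted p = 1.99e-06). With that factor Alox5ap was also called lower at 1-week in injured STR/ort joints against MRL/MpJ (-0.98) and C57BL/6 (-0.77) and in contralateral ones against MRL/MpJ (-0.61). In this set 5 of 10 members did not overlap between joints, Ptgs2 and Ptges upward and Ptgs1, Alox5 and Alox5ap downward, and 13.7% of all genes did not overlap.

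Neutrophil markers (S100a8, S100a9, Ngp, Camp, Mpo, Ltf) moved with some of these differences. Their sum averaged 10100 CPM (7990 to 11400) in injured and 14700 CPM (13000 to 17400) in contralateral STR/ort joints at 1-week, with 2 of 6 called lower and a median log2 fold change of -0.55. In the injured joints of MRL/MpJ and C57BL/6 at 1-week it averaged 15800 CPM (13300 to 17700) and 12800 CPM (12200 to 13800). At 0-day it averaged 12800 CPM (11900 to 14200) in STR/ort, 16500 CPM (14600 to 17600) in MRL/MpJ and 15100 CPM (13600 to 16700) in C57BL/6. In STR/ort against MRL/MpJ 1 of 6 was called lower at 0-day, 4 in injured joints at 1-week and 1 at 2-weeks. Against C57BL/6 none of 6 was called at 0-day (median log2 fold change -0.21) or in injured joints at 1-week (median -0.34), where Alox5 was called. Macrophage and mast cell markers were also lower in STR/ort than in C57BL/6 at 0-day, with 3 of 6 called (median -0.69, 369 CPM against 573 CPM) and 4 of 6 called (median -0.89, 66.1 CPM against 88.2 CPM). All 5 muscle markers were called higher there (median 0.85, 66500 CPM against 36500 CPM) and 2 of 5 cartilage markers lower, in the libraries that also gave the 0-day Ptgs2 difference between these strains. None of these markers was at 0, and their part in the differences of Alox5 and Alox5ap was not tested.

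Counted over strains, the members called were 2 of 10 at 0-day in STR/ort minus MRL/MpJ (14.8% of all genes called), 2 in STR/ort minus C57BL/6 (13.8%) and 1 in C57BL/6 minus MRL/MpJ (15.9%). In contralateral joints at 1-day they were 3 (22.6%), 0 (10.5%) and 3 (14.8%) in the same order of pairs. At 1-week they were 2 (24.4%), 1 (22.2%) and 0 (8.53%), and at 2-weeks 1 (13.8%), 1 (9.78%) and 0 (9.83%). In injured joints at 1-day they were 3 (20.3%), 1 (12.4%) and 2 (16.3%), at 1-week 4 (29.5%), 4 (25.1%) and 0 (9.47%), and at 2-weeks 2 (18.9%), 1 (10.4%) and 1 (11.5%). Read against these shares, nothing particular to the members as a list is drawn from the counts between strains.

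Over time, contralateral STR/ort joints differed from 0-day in 3 of 10 members at 1-day (9.92% of all genes) and 2 at 1-week (13.6%). C57BL/6 had 0 at 1-day (0.0693%) and 1 at 1-week (5.72%), and MRL/MpJ had 0 at both (0.0924% and 0%). Between injured joints at 1-week and 1-day 1 member was called in STR/ort (13.9%), 1 in C57BL/6 (4.47%) and 0 in MRL/MpJ (3.11%).

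The rest of the eicosanoid pathway was read from a list of 31 other genes, of which 30 were in the table. Of these, 22 were called in no injury comparison and 8 in at least 1. At 1-day 1 of the 30 was called in STR/ort (4.31% of all genes called), 2 in C57BL/6 (5.6%) and 1 in MRL/MpJ (2.02%). At 1-week they were 4 (9.21%), 1 (5.82%) and 2 (3.13%), and at 2-weeks 4 (4.66%), 1 (2.95%) and 2 (1.16%), in the same order of strains. All were increases except 1 in C57BL/6 at 1-day and 3 in STR/ort at 1-week.

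The prostaglandin transporter Slco2a1, which takes prostaglandins up into cells, was called higher in 4 injury comparisons. Its mean level was 21.3 CPM against 11.7 CPM in STR/ort at 1-day (adjusted p = 8.41e-05) and 22.4 CPM against 12.4 CPM at 2-weeks (adjusted p = 1.49e-06). It was 16.6 CPM against 9.37 CPM in MRL/MpJ at 1-day (adjusted p = 0.000371) and 13.1 CPM against 8.49 CPM in C57BL/6 at 1-week (adjusted p = 0.00652). In all 4 the groups did not overlap.

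Ptgfr, the receptor for prostaglandin F2 alpha, was higher in injured joints of STR/ort at 1-week (24.2 CPM against 14 CPM, adjusted p = 0.000403) and 2-weeks (13.9 CPM against 9.03 CPM, adjusted p = 0.000387). In MRL/MpJ at 1-week it was higher by 0.59 ± 0.17 on the log2 scale (adjusted p = 0.0412).

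Of the secreted phospholipases, which release arachidonic acid, Pla2g2e was higher in injured joints at 2-weeks in all 3 strains. Its log2 fold changes were 2.34 ± 0.40 in STR/ort (adjusted p = 6.93e-05), 1.83 ± 0.51 in C57BL/6 (adjusted p = 0.021) and 1.72 ± 0.46 in MRL/MpJ (adjusted p = 0.0405), at mean levels of at most 1.44 CPM. Pla2g2a was higher in MRL/MpJ at 1-week (2.27 CPM against 0.719 CPM, adjusted p = 0.0336) and 2-weeks (log2 fold change 2.37 ± 0.38, adjusted p = 0.000276) and in STR/ort at 2-weeks (2.52 CPM against 0.607 CPM, adjusted p = 0.0016). In C57BL/6 it averaged at most 0.0787 CPM in the joints of 1-day and 1-week, and at 2-weeks the log2 difference with injury, 1.98 ± 0.76, was not called (adjusted p = 0.108).

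Alox15, the 12/15-lipoxygenase, was lower in injured joints of C57BL/6 at 1-day (30 CPM against 44.8 CPM, adjusted p = 0.0112, groups overlapping) and of STR/ort at 1-week (17.5 CPM against 31.5 CPM, adjusted p = 6.93e-07). At 1-week its response in STR/ort was also called below that of MRL/MpJ (log2 difference -0.59 ± 0.15, adjusted p = 0.0397) and that of C57BL/6 (-0.64 ± 0.14, adjusted p = 0.0308). Each called once were the cysteinyl leukotriene receptor Cysltr1, higher in C57BL/6 at 1-day (8.76 CPM against 4.53 CPM, adjusted p = 8.51e-05), and, both lower in STR/ort at 1-week, the phospholipase Pla2g5 (14.2 CPM against 22 CPM, adjusted p = 0.00348) and the prostaglandin E2 receptor Ptger3 (6.94 CPM against 10.6 CPM, adjusted p = 0.0187, groups overlapping). Cell type markers also moved in these injury comparisons, as given above for the members. Their part in the changes of the pathway genes was not tested.

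Over the group means of all 21 groups, the genes whose log2 level was most like that of Ptgs2 among 14417 genes included Rgs16 (Pearson r = 0.938) and Lrrc32 (0.924). For Ptgis they were Metrnl (0.918), Pard6g (0.903) and Smad9 (0.898), and for Alox5ap Arhgap30 (0.967), Arhgap25 (0.965) and Vav1 (0.961). For Hpgds they were Ncl (0.972), Hprt (0.971) and Nap1l1 (0.971), all read from groups in which Hpgds was low throughout the 2-weeks batch. The group means of Alox5ap were also lower throughout that batch. The groups share strains, batches and tissue makeup, so these values describe likeness only.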

How the data were processed

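Mouse knee joint RNA was sequenced from poly(A) libraries. Per the labels and the processing notes of the submitters, the authors aligned reads with TopHat2 (version 2.0.11) to mm10 and counted them per gene with featureCounts, and deposited 1 table of raw counts with 17313 rows. The strand setting was not given in the sources used here. Of 3 gene names listed in 2 rows, 1 row each was dropped. The study's minimum of 2 counts in at least 5 libraries took out 0 of the 17310 genes. Library totals of 6182016 to 20986027 (median 10582591.5) limit the precision of genes at few counts, such as Ptgs2. No column lacked a sample, and none of 190 pairs of libraries within a group was identical.

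Counts were normalized by TMM and tested in edgeR (version 4.0.16; R 4.3.3) with glmQLFit and glmQLFTest, in 1 fit per time point with 6 groups, 1 fit of the 0-day libraries, and 1 fit of the 70 batch 1 libraries for times. Over 48 comparisons a call needed an adjusted p (Benjamini-Hochberg) under 0.05 and a fold change over 1.5. Standard errors were taken from the log2 fold change and its F statistic. The labels name animals only at 2-weeks, where each number is an animal that gave both joints, and p-values measure the spread between these libraries. Pairing was also checked by correlating deviations of same-numbered joints: every pair was over 0.1 in STR/ort at 1-week (0.162 to 0.37), and median r was 0.104 to 0.268 in batch 1. At 2-weeks r was 0.213 to 0.449 in STR/ort, 0.183 to 0.271 in C57BL/6 and -0.279 to 0.082 in MRL/MpJ, so there the pairing of MRL/MpJ joints rests on the labels and is not seen in the data. Exon lengths were from GENCODE M21 and positions and promoters from RefSeq. The 10 members, the pathway list and the marker lists were chosen with earlier results of these data known. Named pathway genes were those called in at least 2 injury comparisons, then by adjusted p, 8 at most; likeness was read for Ptgs2, Ptgis, Alox5ap and Hpgds, 3 genes each with a mean of at least 1 CPM, of which 1 is not reported here. The tests were tried on simulated data. Alternatives were RLE size factors, RUVg with 1 factor from 25 housekeeping genes, DESeq2 (version 1.42.0), filterByExpr, no filter, a replicate block and leaving out each library, in fits that kept the dispersion trend of all libraries. The study itself normalized with RUVseq on 25 housekeeping genes, and its number of factors was not given in the sources used here.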

Additional observations from a re-analysis of the deposited data

Results flagged for a closer look

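Single libraries far from the others of their group (Dixon's ratio above its 95% value) were looked for in 210 sets of a member and a group, and 13 were found. Chance flags about 1 in 20 such sets, so this number is near what chance gives. Values are CPM, with the nearest other library in brackets. In MRL/MpJ injured joints at 2-weeks, replicate 4 was low in Ptgs1 at 38.7 (52.9), Alox5 at 49.5 (69.2) and Alox5ap at 52.1 (71.7). The same library had 92250 CPM of summed skeletal muscle markers (43100 to 51390 in the other 4) and 12220 CPM of neutrophil markers (17460 to 18810 in the others), and their part in the low values was not tested. Ptgs2 stood out in MRL/MpJ injured joints at 1-week, replicate 3, at 10.5 (4.32).

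Ptgs1 was low in MRL/MpJ at 0-day, replicate 3, at 40.0 (46.0). Ptgis was low in contralateral joints at 2-weeks in C57BL/6 replicate 1 at 32.5 (39.7) and STR/ort replicate 2 at 35.9 (44.2). Hpgds was high in C57BL/6 injured joints at 1-week, replicate 2, at 36.6 (34.1). Ptger2 was high in MRL/MpJ at 0-day, replicate 2, at 4.07 (2.93), and Alox5ap in MRL/MpJ contralateral joints at 2-weeks, replicate 3, at 84.2 (74.4). The 3 Ptgds libraries rest on 1, 4 and 2 counts: MRL/MpJ at 0-day replicate 4 at 0.172 (0), MRL/MpJ injured at 1-day replicate 3 at 0.38 (0.0987) and STR/ort injured at 2-weeks replicate 2 at 0.175 (0).

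Differences in injury response between strains were tested for 10 members in 9 comparisons, and 2 were called, both for Hpgds at 1-day. STR/ort minus C57BL/6 was -0.747 (adjusted p = 1.36e-05) and C57BL/6 minus MRL/MpJ was 0.597 (adjusted p = 0.00274) on the log2 scale, by edgeR's quasi-likelihood test.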

How the results depend on the processing

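Of the 54 calls of members, all 54 were kept with RLE size factors, DESeq2, filterByExpr and no filter, and 45 with RUVg, which turned the Ptgis difference between STR/ort and MRL/MpJ in injured joints at 1-week to -0.05 (main value 0.70). The replicate block kept 12 of 12 calls it could be applied to. It called 2 members in place of 1 for injury in C57BL/6 at 1-day, the second being Hpgds at 0.59, as filterByExpr did (2), and changed no other call. The changes of over 1.5 times in the number of members called follow. With RUVg it went from 2 to 1 for C57BL/6 minus MRL/MpJ in injured joints at 1-day, from 1 to 2 for injury in C57BL/6 at 1-week (Ptges, 0.60) and for STR/ort minus C57BL/6 in contralateral joints at 1-week, and in contralateral STR/ort joints against 0-day from 3 to 1 at 1-day and from 2 to 1 at 1-week. With DESeq2 it went from 0 to 1 for C57BL/6 minus MRL/MpJ in contralateral joints at 1-week and at 2-weeks (Ptgs2, adjusted p = 0.0185 and 0.031), and from 1 to 2 for injured STR/ort joints at 1-week against 1-day (Ptges, 0.60), as with RLE (2). Smaller changes were the loss of Ptgis for STR/ort minus MRL/MpJ in injured joints at 1-day with RUVg (0.51), and added calls of Alox5ap for injury in STR/ort at 1-week with RUVg (-0.61), of Ptges for STR/ort minus MRL/MpJ in contralateral joints at 1-week with DESeq2 (0.59) and of Hpgds for C57BL/6 minus MRL/MpJ in injured joints at 1-day with filterByExpr (0.59). RUVg exchanged members at 1-week in STR/ort minus MRL/MpJ, losing Ptgis and adding Alox5ap in both joints, while losing Ptgs2 and adding Alox5 in contralateral joints and adding Ptgs1 in injured ones. In injured joints at 1-week it also exchanged Ptgis for Alox5ap in STR/ort minus C57BL/6. The cause of these changes was not tested. Leaving out 1 library at a time, the number called ranged from 0 to 1 for injury in C57BL/6 at 2-weeks, for STR/ort minus C57BL/6 in injured joints at 1-day, for the response of C57BL/6 minus MRL/MpJ at 1-day, and for C57BL/6 minus MRL/MpJ in injured joints at 1-week and contralateral ones at 2-weeks. It ranged from 1 to 2 for C57BL/6 minus MRL/MpJ at 0-day, injury in C57BL/6 at 1-day and 1-week, injury in STR/ort at 2-weeks, STR/ort minus C57BL/6 in contralateral joints at 1-week and STR/ort minus MRL/MpJ in injured joints at 2-weeks. It ranged from 1 to 3 for C57BL/6 minus MRL/MpJ in both joints at 1-day, STR/ort minus MRL/MpJ in contralateral joints at 1-week and injured STR/ort joints at 1-week against 1-day. It ranged from 2 to 3 for injury in STR/ort at 1-week, STR/ort minus MRL/MpJ in contralateral joints at 1-day and contralateral STR/ort joints at 1-day against 0-day. Without TMM the strain order of group means was the same in 57 of 70 sets of a member, time and joint. The low counts of Ptgs2 (median 29) and Ptgds (median 1) limit what could be detected.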
